A study of Sus scrofa with 9 samples.

Results

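Genes of the secretory pathway and of vesicle traffic were followed across 3 embryonic stages of the additional molars in Wuzhishan miniature pigs. Members were chosen by name only. A gene was taken where the platform gave its probe set a single symbol that begins with SEC and a digit, SSR, SPCS, SRP and a digit, TMED, COPA, COPB, COPE, COPG, COPZ, TRAPPC, ARF and a digit, or RAB and a digit. This rule took 88 genes of 6765 with a single symbol, measured by 135 of the 23999 probe sets that remained after array controls were set aside. A probe set is a group of short oligonucleotides on the array that together report 1 transcript. For the 31 genes with several probe sets, the one with the highest mean log2 signal over all 9 arrays stood for the gene.

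The additional molars are the permanent molars, which replace no milk tooth. Germs with their attached dental lamina were dissected from mandibles of fetuses staged by histology, on embryonic days 50 (E50), 60 (E60) and 70 (E70), with 3 Porcine Genome Arrays per stage and 9 in all. At E50 the first molar (M1) was at the cap stage and the second (M2) had not started. At E60 M1 was at the bell stage and M2 had started, and at E70, which the submitters used as their control stage, M1 was at the late bell stage while M2 had changed little. The labels name no treatment or genetic change at any stage. The methods took germs of a stage from the same litter and extracted RNA from pooled germs of a stage. The labels name the 3 arrays per stage as biological replicates. No source says whether they stand for different litters or separate pools, so a p-value here covers only array-to-array spread. The stages were compared with limma, with each change given as later stage minus earlier stage on the log2 scale, and a change was called at an adjusted p under 0.05 over all 23999 probe sets.

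Proteins that a cell will secrete or place in a membrane enter the endoplasmic reticulum (ER) while they are being made. The signal recognition particle (SRP) binds the emerging signal peptide, the SEC61 channel takes the chain across the membrane, and signal peptidase cuts the signal peptide off. COPII-coated vesicles carry cargo from the ER towards the Golgi apparatus, COPI-coated vesicles carry material back, TRAPP and other tethers catch vesicles, and small GTPases of the ARF and RAB families switch these steps on and off. In teeth this route exports the collagen and dentin matrix of odontoblasts, the enamel proteins of ameloblasts and the growth factors that epithelium and mesenchyme exchange. The members fell into 19 genes of entry into the ER (6 of SRP, 5 of the translocation channel, 3 translocon-associated proteins and 5 of signal peptidase), 37 genes of coats, cargo receptors, ARF GTPases and TRAPP, and 30 RAB genes, made up of 26 RAB GTPases and 4 effectors or regulators. The remaining 2, SEC14L1 and SEC14L2, share a prefix with the pathway but encode lipid-binding proteins.

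Arrays of E50 stood apart from those of both later stages. Background, taken as the 95th percentile of 23 control probe sets of foreign sequence, ranged over 77.7 to 379 signal units on the E50 arrays, 37.9 to 54.4 on those of E60 and 38.1 to 55.8 on those of E70. For the control gene EF1A, the 3' probe set over the 5' one, a sign of RNA integrity and labelling, gave ratios of 49.3 to 55.8 on E50 arrays, 1.42 to 1.56 on E60 arrays and 1.35 to 1.47 on E70 arrays. Arrays of E50 correlated with each other at 0.605 to 0.683 over all probe sets, those of E60 at 0.902 to 0.914 and those of E70 at 0.901 to 0.921. The platform's hybridisation spike-ins averaged 58370.3 to 66123 at E50, 4149.5 to 4268 at E60, then 3086 to 3938 at E70. These measures moved with stage, so their part in any difference between E50 and a later stage cannot be told apart from that of age.

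The secretory genes were mostly well detected. All 3 arrays were above background for 68 of the 88 members at E50, 82 at E60 and 84 at E70, against 55.8%, 81.8% and 82.1% of all 6765 genes, and 67 members were above background on all 9 arrays. The median SD between arrays of a stage was 0.314 log2 units at E50, 0.113 at E60 and 0.207 at E70 for the members, and 0.513, 0.185 and 0.251 for all genes. Dim members, below background on at least 1 array of a stage, numbered 21, and TRAPPC12, a TRAPP subunit, was above background on 0 arrays at E50 and on 1 array at each later stage.

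**Figure D1:**
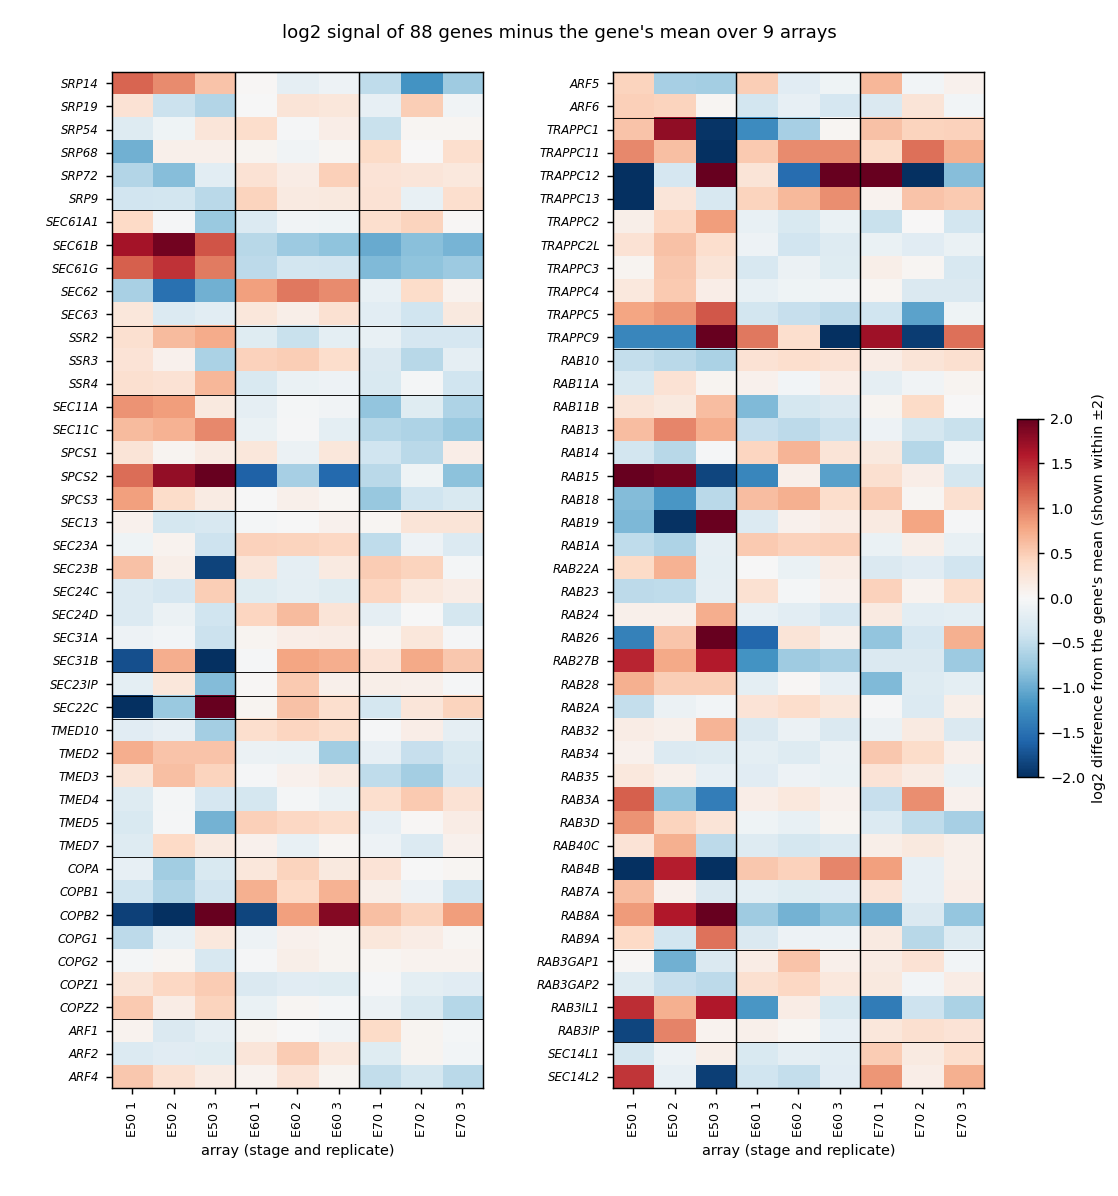
Log2 signal of each of the 88 members on each array, as the difference from the gene's own mean over 9 arrays (colour, shown within ±2), with genes in rows by role and arrays in columns by stage. SEC61B and SEC61G were high on all 3 E50 arrays and SEC62 was low there, while dim genes such as TRAPPC12 and COPB2 varied within a stage.

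Between E50 and E60, when M1 passed into the bell stage, 7 of the 88 members rose, 12 fell and 69 did not pass the test. The called share was 21.6%, against a background of 18.5% of all probe sets and 20.9% of genes with 1 probe set each, so the members as a whole were called about as often as other genes. Rises made up 7.85% and falls 10.6% of all probe sets, or 7.2% and 13.7% of genes, and 36 members had an unadjusted p under 0.05, as did 34.2% of all probe sets. Rises were seen for SRP72, SEC62, COPB1, RAB1A, RAB10, RAB18 and RAB3GAP2, and falls for SRP14, SEC61B, SEC61G, SSR2, SEC11C, SPCS2, TMED2, TRAPPC5, RAB8A, RAB13, RAB27B and RAB3IL1. The median change was -0.03 over the members and -0.18 over all genes. Arrays of both stages did not overlap in 21 members with higher and 28 with lower signal at E60, beside 18.2% and 27.5% of all genes. In bulk tissue, fewer cells of a type and less RNA per cell cannot be told apart.

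The split by direction depended on how arrays were scaled. With each array centred on its median, which moves the median over all probe sets up by 0.77, 26 members were called higher and 4 lower, where 21.3% of all genes were higher and 3.92% lower. With quantile normalization, which moves it up by 0.18, 4 members were higher and 11 lower, beside 6.36% and 9.96% of all genes. Over all probe sets the higher share of the calls was 42.5% as deposited, 83.7% with median centring and 50.2% with quantile normalization. No call between E50 and a later stage changed sign under these scalings. The smallest called fall at E60 against E50, 0.86 for SSR2, already exceeded these shifts. A sign change was thus nearly excluded by the choice of called members. Every direction below is that of the deposited scale. Median centring ended the calls of SRP14, SEC61G, SSR2, SEC11C, TMED2, TRAPPC5, RAB13 and RAB3IL1 at E60 against E50. Quantile normalization ended the rises of SRP72, COPB1, RAB1A, RAB10 and RAB3GAP2 there, and the falls of SRP14, SSR2, TMED2 and RAB3IL1. At E70 against E50 it ended every rise, those of SEC62, RAB10 and RAB18. It also ended the falls of SSR2, TMED2, ARF4, RAB27B, RAB3D and RAB3IL1 at E70. Fitted on the E50 and E60 arrays alone, 2 members rose and 7 fell, where 3.24% of all genes rose and 6.65% fell, and SRP14, SRP72, SSR2, SEC11C, TMED2, COPB1, RAB1A, RAB10, RAB3GAP2 and RAB3IL1 were no longer called. At E60 against E50 the calls of SEC61B, SEC62, SPCS2 and RAB27B were kept in every leave-one-out fit and setting tried.

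Calls were spread unevenly over the roles. Of the 19 genes of entry into the ER, 8 were called at E60 against E50 (2 higher, 6 lower), as were 3 of the 37 genes of coats, cargo receptors, ARF and TRAPP (1 higher, 2 lower) and 8 of the 30 RAB genes (4 higher, 4 lower). These shares were 42.1%, 8.11% and 26.7%, beside 20.9% of all genes, and their difference was not tested.

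**Figure D2:**
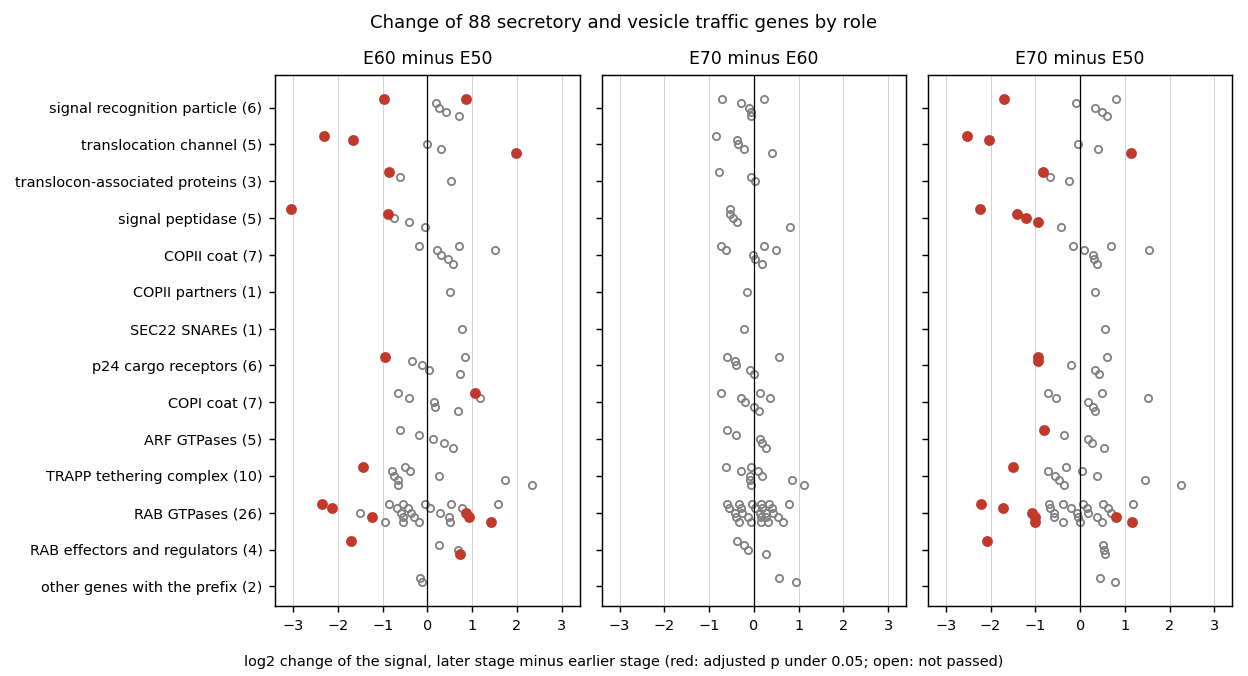
Log2 change of each member (dots) by role (rows, with the number of genes in brackets), with a panel for E60 minus E50, one for E70 minus E60 and one for the whole interval, with called members filled in red. Filled dots of ER entry genes lie mostly left of 0 in both comparisons with E50, and no dot is filled for E70 minus E60.

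The translocation channel held called changes in both directions. SEC61B encodes the beta subunit of the SEC61 channel, and its probe set read 21047, 25467 and 15992 at E50, 4526, 4034 and 3835 at E60, and 3326, 3757 and 3507 at E70. The lowest E50 array was thus well above the highest array of either later stage. It fell by 2.31 on the log2 scale at E60 against E50 (SE 0.24, adjusted p = 0.0021) and by 2.54 at E70 against E50 (SE 0.24, adjusted p = 0.0011), and both calls held in each of the 9 fits that left out 1 array and in all 11 other settings tried. SEC61G, the gamma subunit, read 31688, 37821 and 28401 at E50, 9625, 10744 and 10556 at E60, and 7499.8, 7957 and 8324 at E70, so the 3 stages did not overlap. Its change was -1.65 at E60 against E50 (SE 0.21, adjusted p = 0.0037) and -2.03 at E70 against E50 (SE 0.21, adjusted p = 0.0013). The E60 call ended with median centring (adjusted p = 0.0543), and both calls ended with the mean over the gene's probe sets (adjusted p = 0.364 and 0.215), of which the second was above background on no array.

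SEC62 moved the other way. Its protein, an accessory of the channel that serves small precursors entering after their synthesis and that also acts as a receptor for ER turnover, had a probe set reading 1035, 581 and 842 at E50, 2890.1, 3379 and 3139 at E60, and 1468, 2105 and 1706 at E70. All 3 E60 arrays lay above every other array. The rise at E60 against E50 was 1.97 (SE 0.28, adjusted p = 0.0057), a 3.93-fold higher geometric mean, and it passed in all 9 leave-one-out fits and all 11 other settings. At E70 it was still 1.13 above E50 (SE 0.28, adjusted p = 0.032), a call lost when any single E60 or E70 array was left out, with the highest adjusted p at 0.104. SEC63, the partner of SEC62, did not pass on its brightest probe set, with a change of 0.30 (SE 0.26) at E60 against E50. Another SEC63 probe set, above background on all arrays, was called higher at both later stages. Its changes were 1.325 at E60 (SE 0.27, adjusted p = 0.016) and 1.255 at E70 (SE 0.27, adjusted p = 0.018) against E50. The remaining SEC63 probe set had 1.56 at E60 against E50 (SE 0.49, adjusted p = 0.065) and did not pass. SEC61A1, the pore-forming alpha subunit, did not pass, with a change of -0.02 (SE 0.32) at E60 against E50. The alpha, beta and gamma subunits of 1 channel thus had log2 changes of -0.02, -2.31 and -1.65 in the same comparison.

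**Figure D3:**
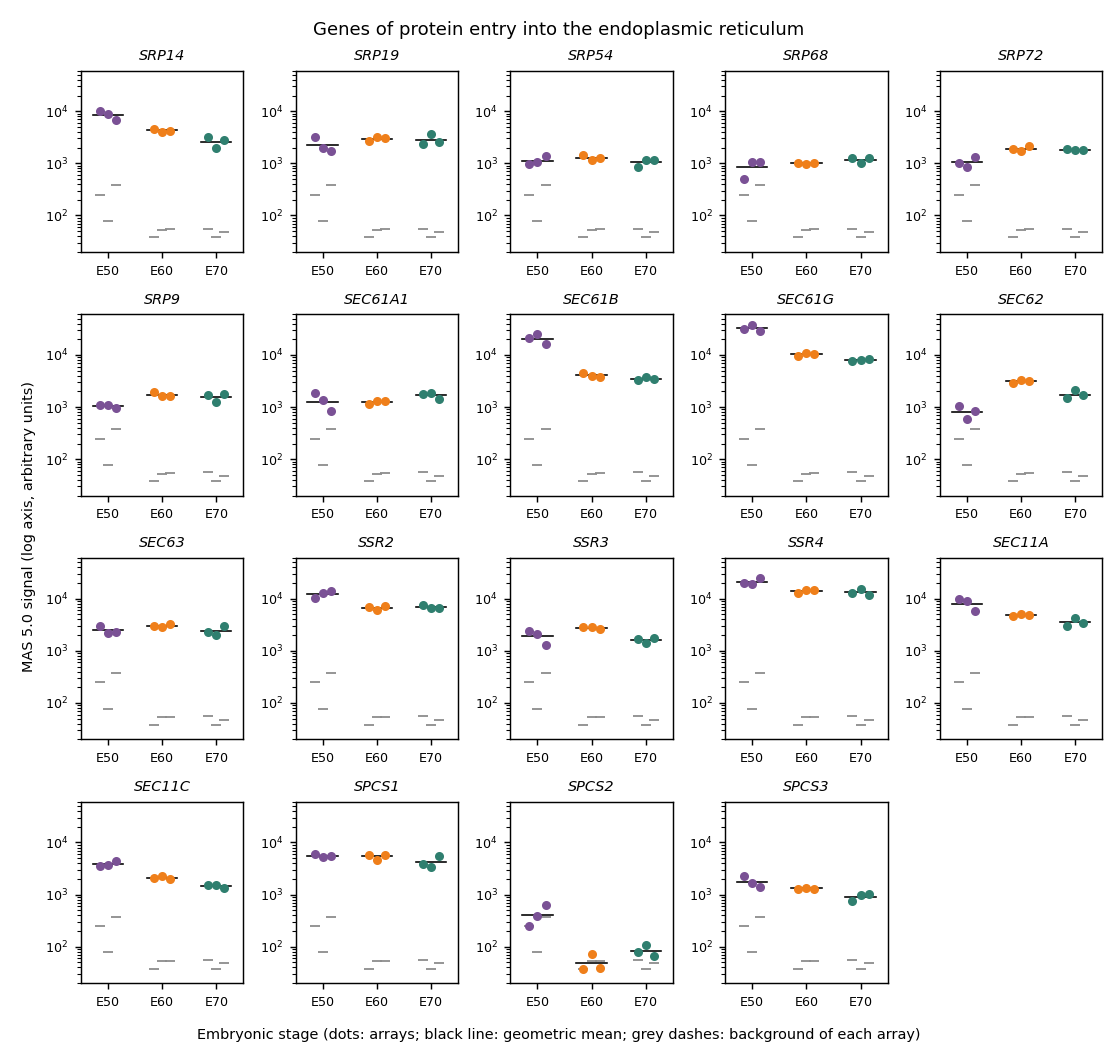
Signal (log axis, arbitrary units) of the 19 genes of entry into the ER on each array (dots), with the geometric mean of each stage (black line) and the background of each array (grey dashes), for E50, E60 and E70 from left to right. SEC61B, SEC61G, SRP14 and the SEC11 genes step down after E50, SEC62 peaks at E60, and SPCS2 lies at the background at E60.

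The particle that delivers ribosomes to this channel was split as well. SRP14, which with SRP9 forms the part of the particle that pauses translation, was the SRP gene with the highest mean signal and read 10140.0, 8738 and 6737 at E50, 4627, 3998 and 4248 at E60, and 3191, 1996 and 2785 at E70. The arrays of the 3 stages did not overlap. It fell by 0.98 at E60 against E50 (SE 0.27, adjusted p = 0.0455) and by 1.69 at E70 against E50 (SE 0.27, adjusted p = 0.0068). The E70 call held in all 9 leave-one-out fits, whereas the E60 call was lost in 7 of them, all but those without E50 replicate 3 or E70 replicate 2, with adjusted p up to 0.139. Both calls ended with median centring (adjusted p = 0.0796 at E70). SRP72, which binds the particle's RNA together with SRP68, read 1026, 849 and 1319.8 at E50, 1873, 1706 and 2122 at E60, and 1854, 1809 and 1778 at E70. Its rise of 0.85 at E60 (SE 0.24, adjusted p = 0.046) was kept in only 1 of 9 leave-one-out fits, without E50 replicate 3, and its other probe sets, with changes of 0.09 and 1.09, did not pass. The change of SRP9 was 0.70 (SE 0.23, adjusted p = 0.072) and did not pass, although its 3 E60 arrays, at 1606 to 1918, were all above the E50 arrays, at 973 to 1099. SRP19, SRP54 and SRP68 had changes of 0.19 to 0.40, with adjusted p of 0.404 to 0.634.

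Among the translocon-associated proteins, which sit beside the channel and help some chains to insert, SSR2 fell by 0.86 at E60 against E50 (SE 0.22, adjusted p = 0.034) and was 0.84 lower at E70 than at E50 (SE 0.22, adjusted p = 0.035). Its arrays read 10345, 12819.8 and 13746 at E50, 6979, 6069.7 and 7190.4 at E60, and 7445, 6503 and 6559 at E70. Both calls were lost without any 1 E60 or E70 array, and that at E70 also without E50 replicate 2, with adjusted p up to 0.122 and 0.112. SSR4, the member of this role with the highest mean signal, had a change of -0.60 at E60 against E50 (SE 0.22, adjusted p = 0.10), with all E60 arrays below all E50 arrays. SSR3 read 2448, 2149 and 1309 at E50, 2807, 2854 and 2584 at E60, and 1658, 1386 and 1800.5 at E70, highest at E60, and passed in none of the pairwise comparisons.

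Signal peptidase genes were mostly lower at E70 than at E50. All 5 had negative changes at E70 against E50 and 4 passed: SEC11A (-1.20), SEC11C (-1.41), SPCS2 (-2.25) and SPCS3 (-0.94). Of all genes, 14.3% were called lower in that comparison. With median centring the calls of SEC11A, SEC11C and SPCS3 ended and that of SPCS2 was kept. Array weights ended those of SEC11A, SPCS2 and SPCS3. SEC11C, a catalytic subunit, read 3546, 3687 and 4448 at E50, 2093, 2250.3 and 2000.0 at E60, and 1533, 1495 and 1366 at E70, with no overlap between stages. Its fall was 0.88 at E60 (SE 0.205, adjusted p = 0.026) and 1.41 at E70 (SE 0.205, adjusted p = 0.0048) against E50, and the E60 call was lost without any 1 of the E60 arrays, with adjusted p up to 0.097. SEC11A, the other catalytic subunit and the gene of this role with the highest mean signal, read 2988 to 4348 at E70 against 5919.5 to 9672 at E50 (adjusted p = 0.024), a call lost without E70 replicate 1 or replicate 3. SPCS3 fell by 0.94 at E70 against E50 (SE 0.26, adjusted p = 0.042) and kept that call in 2 of 9 leave-one-out fits, without E50 replicate 2 or 3. SPCS1, a small accessory subunit, did not pass, with -0.04 at E60 and -0.43 at E70 against E50.

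SPCS2, another accessory subunit, had the largest fitted fall of all members at E60 but was a dim probe set. It read 253, 396 and 628 at E50, where the arrays' backgrounds were 248, 77.7 and 379, then 38.1, 73.7 and 39.8 at E60 and 80.7, 110.3 and 66.5 at E70. At E60 2 of 3 arrays exceeded their background of 37.9 to 54.4. The change was -3.05 at E60 against E50 (SE 0.43, adjusted p = 0.0053) and -2.25 at E70 against E50 (SE 0.43, adjusted p = 0.013), and the E70 call was lost without E70 replicate 3 (adjusted p = 0.053). Background was itself higher at E50, and its part in this fall was not tested.

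The COPII coat, which buds vesicles from the ER, had no call in the 3 comparisons on the probe sets that stood for its 7 measured genes. In limma's fit 2 of the 7 had an unadjusted p under 0.05 at E60 against E50, 2 at E70 against E60 and 0 at E70 against E50. SEC31A, of the outer cage and the COPII gene with the highest mean signal, read 2936 to 3829 at E50, 4109 to 4403 at E60, then 3898 to 4644 at E70. SEC23A, the inner coat subunit whose loss causes a craniofacial syndrome in humans, read 2863, 3222 and 2299.8 at E50, 4208, 4150.2 and 4068 at E60, and 2146, 2832 and 2522 at E70. Its 3 E60 arrays lay close together and above all 6 others, with a change of 0.58 at E60 against E50 (SE 0.23, adjusted p = 0.12) and -0.74 at E70 against E60 (SE 0.23, adjusted p = 0.39). SEC24D, a cargo-binding subunit likewise tied to a human skeletal disorder, had the same order, at 1079 to 1306, 1704 to 2206 and 1109 to 1417 from E50 to E70. A second SEC23A probe set, above background on all arrays, was called higher at both later stages. Its changes were 1.51 at E60 (SE 0.25, adjusted p = 0.0088) and 0.97 at E70 (SE 0.25, adjusted p = 0.036) against E50. SEC13, SEC23B, SEC24C and SEC31B had changes of -0.19 to 1.51 at E60 against E50, and the highest of these, of the dim SEC31B, came with an SE of 0.70. SEC23IP, a partner of SEC23, had a change of 0.50 (SE 0.32), and SEC22C, an ER protein related to the SNARE SEC22B, read 10.6 to 422 at E50 and was above background there on 1 array.

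Genes of the p24 family, cargo receptors that cycle between ER and Golgi, had falls among their calls and no rise on their brightest probe sets. TMED2, with the highest mean signal of the 6, fell by 0.94 at E60 against E50 (SE 0.24, adjusted p = 0.035), with arrays at 16564, 14797 and 14895 at E50, 9204, 9079 and 6183 at E60, and 8887, 7261 and 8124 at E70. It was 0.93 lower at E70 than at E50 (SE 0.24, adjusted p = 0.035). Among the 9 leave-one-out fits both calls were kept without E50 replicate 2 or 3, that at E70 also without E60 replicate 3, and lost in the others. TMED10, which forms complexes with TMED2, read 9205 to 9833 at E60 against 4569.8 to 6530.2 at E50, without overlap, and its change of 0.72 did not pass (SE 0.23, adjusted p = 0.066). TMED3 was 0.94 lower at E70 than at E50 (SE 0.21, adjusted p = 0.023), at 443, 393 and 499 at E70 against 758, 954 and 856 at E50, a call lost without any 1 E70 array. TMED4 read 1326 to 1557 at E70, above all arrays of E50 and E60, at 854 to 1058, and did not pass (0.59 at E70 against E50, adjusted p = 0.094). TMED5 and TMED7 had changes of 0.84 and -0.11 that did not pass at E60 against E50 on their brightest probe sets. Other TMED5 probe sets were called in opposite directions there. The second, above background on all arrays, had a change of -1.42 (SE 0.30, adjusted p = 0.020). The third, above background on no E50 array, had 1.93 (SE 0.52, adjusted p = 0.041).

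Of the COPI coat, which returns ER proteins from the Golgi, COPB1 was the only one of 7 genes called. COPB1 encodes the beta subunit, had the highest mean signal of the 7 and read 2089.6, 1795 and 2121 at E50, 4504, 3641 and 4462 at E60, and 2987, 2571 and 2107 at E70. The E60 arrays lay above all others. It rose by 1.07 at E60 against E50 (SE 0.23, adjusted p = 0.021), was lost without any 1 of the E60 arrays (adjusted p up to 0.083), and stood at 0.34 (adjusted p = 0.34) at E70 against E50. A second COPB1 probe set had a change of 0.72 at E60 against E50 and did not pass. COPA, the alpha subunit, read 2488 to 2958 at E60 against 1339 to 1943 at E50 (0.68, SE 0.235, adjusted p = 0.084). COPZ1 and COPZ2, the zeta subunits, had changes of -0.65 and -0.42, with all E60 arrays below all E50 arrays, and COPG1 and COPG2 had 0.16 and 0.15. COPB2 was dim, above background on 1 array at E50.

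The ARF GTPases, which recruit coats to membranes, gave 1 call. ARF4, with the highest mean signal of the 5, fell by 0.80 at E70 against E50 (SE 0.21, adjusted p = 0.039), at 7514, 8324 and 7273 at E70 against 15367, 13080.0 and 11888 at E50, and kept the call in 2 of 9 leave-one-out fits, without E50 replicate 2 or 3. Its E60 arrays, at 11026 to 12893, overlapped those of E50. ARF1, ARF2, ARF5 and ARF6 had changes of -0.61 to 0.57 at E60 against E50 and did not pass. In the TRAPP complex, which tethers vesicles and activates RAB1, TRAPPC5, with the highest mean signal of the 10, fell at both later stages, with changes of -1.43 at E60 against E50 (SE 0.30, adjusted p = 0.018) and -1.495 at E70 against E50 (SE 0.30, adjusted p = 0.015). It read 3431, 3682 and 4726 at E50, 1534, 1442 and 1379 at E60, and 1504, 948 and 1869 at E70, and all E50 arrays were above all others. The E60 call was lost without any 1 E60 array, with adjusted p up to 0.066, while the E70 call held in all 9 leave-one-out fits. That E70 call was lost with median centring, array weights or the 2 stages alone (adjusted p up to 0.122). TRAPPC3 had a change of -0.51 (SE 0.24, adjusted p = 0.18) at E60 against E50. Of the 10 TRAPP genes, 5 had all E60 arrays below all E50 arrays, where 27.5% of all genes did, and 5 were above background on all arrays of both stages.

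RAB GTPases mark membranes and guide vesicles to their targets. Of 26 measured, 3 rose and 3 fell at E60 against E50, and 1 effector or regulator of 4 went each way. The called share of the 26 was 23.1%, close to the 20.9% of all genes. RAB1A, which works between ER and Golgi, read 2203, 2037 and 2776 at E50, 4496, 4323 and 4378 at E60, and 2857, 3384 and 2835 at E70. All E60 arrays were above the rest, and the rise was 0.92 at E60 against E50 (SE 0.22, adjusted p = 0.027), lost without any 1 of the E60 arrays or without E70 replicate 3 (adjusted p up to 0.096). RAB18, which acts at the ER and lipid droplets, read 1819, 1480.1 and 2274 at E50, 5087, 5405 and 4232 at E60, and 4761, 3408 and 4128 at E70. Its rise was 1.42 at E60 (SE 0.26, adjusted p = 0.012) and 1.15 at E70 (SE 0.26, adjusted p = 0.022) against E50, and among the leave-one-out fits the E60 call was lost only without E60 replicate 1 or 2, and the E70 call only without E70 replicate 1 or 3.

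RAB10, of exocytic traffic, rose by 0.85 at E60 (SE 0.19, adjusted p = 0.023) and by 0.79 at E70 (SE 0.19, adjusted p = 0.029) against E50 on its brightest probe set, at 2432 to 2725 at E50, 4589 to 4780.2 at E60, then 4190.0 to 4736 at E70. Its other 3 probe sets did not go 1 way: at E60 against E50 they had changes of -0.82, -0.19 and 2.88, and the last of these, called higher, was above background on no E50 array. Leaving out any 1 E60 array ended the E60 call of RAB10, and any 1 E60 or E70 array the E70 call. RAB3GAP2, which with RAB3GAP1 switches RAB3 off and RAB18 on, rose by 0.73 at E60 against E50 (SE 0.21, adjusted p = 0.047), kept in 2 of 9 leave-one-out fits, without E50 replicate 1 or 3, while its other 2 probe sets, at -0.11 and -0.43, were not called. RAB3GAP1 had a change of 0.69 (SE 0.31, adjusted p = 0.17).

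**Figure D4:**
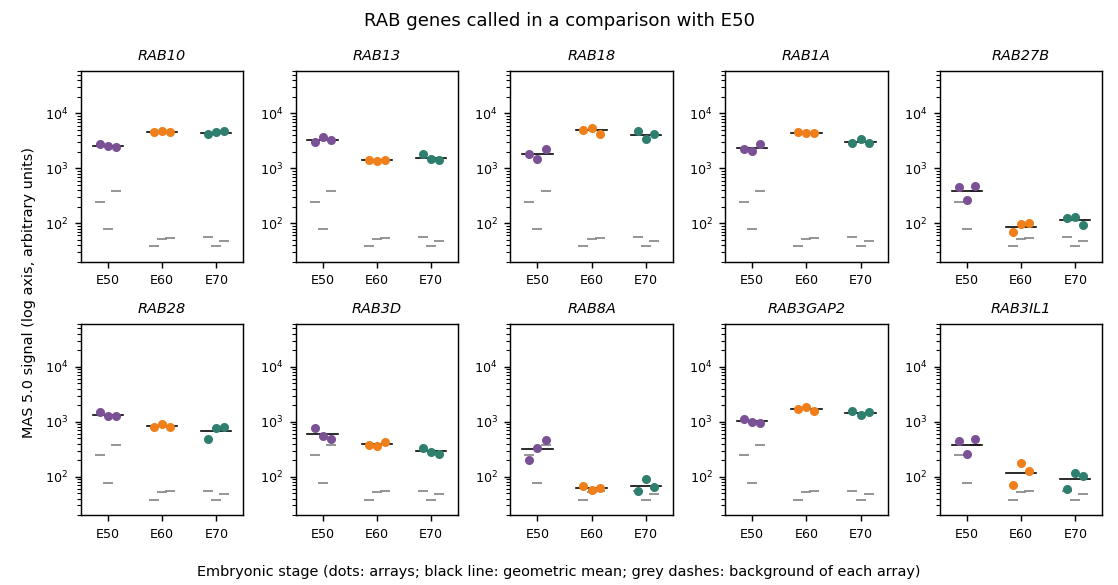
Signal (log axis, arbitrary units) of the 10 RAB genes called in a comparison with E50 on each array (dots), with the geometric mean of each stage (black line) and the background of each array (grey dashes), for E50, E60 and E70 from left to right. RAB1A, RAB10 and RAB18 step up after E50 and RAB13 steps down. RAB8A, RAB27B and RAB3IL1 also read lower after E50, as does the background of the arrays.

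RAB13 was the clearest fall among the brighter RAB genes. It serves traffic to cell junctions and read 2952, 3782 and 3212 at E50, 1399, 1342 and 1441 at E60, and 1809, 1509 and 1413 at E70. Both later stages were clear of E50, with a fall of 1.24 at E60 (SE 0.22, adjusted p = 0.010) that held in all 9 leave-one-out fits but not with median centring (adjusted p = 0.23), and of 1.07 at E70 (SE 0.22, adjusted p = 0.015) that was lost without E70 replicate 2 or 3. RAB28, implicated in cilia, and RAB3D, a RAB of secretory granules, fell by 1.01 (SE 0.26, adjusted p = 0.033) and by 1.02 (SE 0.25, adjusted p = 0.029) at E70 against E50. RAB28 read 495 to 799 at E70 against 1287 to 1501 at E50, and RAB3D 258 to 337 at E70 against 490.0 to 764 at E50. Both calls were lost without any 1 E60 or E70 array, and that of RAB28 also without E50 replicate 1.

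The 3 other falls were in probe sets of low signal at the later stages. RAB8A, which carries cargo from the Golgi to the plasma membrane and the cilium, read 198, 336 and 477 at E50, 67.0, 57.3 and 62.4 at E60, and 54.4, 90.0 and 64.3 at E70, and 2 of 3 E50 arrays were above their background. Its change was -2.35 at E60 (SE 0.365, adjusted p = 0.0073) and -2.22 at E70 (SE 0.365, adjusted p = 0.0074) against E50, and both calls ended only with the mean over its probe sets, the second of which had a change of -1.42 at E60 and did not pass. RAB27B, of regulated secretion and exosome release, read 448, 262 and 468 at E50, 68.0, 95.2 and 99.6 at E60, and 127, 128 and 93.8 at E70, for changes of -2.14 (SE 0.32, adjusted p = 0.0062) and -1.72 (SE 0.32, adjusted p = 0.011). The E70 call of RAB27B was lost with quantile normalization, array weights or the 2 stages alone (adjusted p up to 0.067). RAB3IL1, an exchange factor that activates RAB3A, read 262 to 484 at E50, 71.0 to 176 at E60, then 60.7 to 119 at E70, with a fall of 1.71 (SE 0.45, adjusted p = 0.038) at E60 kept in 2 of the 9 leave-one-out fits, without E50 replicate 2 or E70 replicate 1, and in 5 of the 11 other settings, and of 2.08 (SE 0.45, adjusted p = 0.019) at E70 lost in 2 of the 9 leave-one-out fits, without E70 replicate 1 or 3, and also with median centring, quantile normalization or array weights (adjusted p up to 0.167). In these 3 genes all E50 arrays were above all others, and E50 backgrounds ranged up to 379, a level that the later arrays of these probe sets did not reach. The part of that background was not tested.

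RAB2A, of the early secretory route and the RAB GTPase with the highest mean signal, read 4257 to 5706 at E50, 6946 to 7548 at E60, then 4927 to 6421 at E70, and did not pass (0.50 at E60 against E50, SE 0.23, adjusted p = 0.16). RAB23, a brake on Hedgehog signalling in the mouse, read 686 to 868 at E60 and 739 to 969.6 at E70 on its brightest probe set. All were above its E50 arrays at 488 to 626, and its changes of 0.52 and 0.70 against E50 did not pass (adjusted p = 0.16 and 0.077). Its other probe sets went the opposite way against E50. The second was called lower at E70 (-1.01, SE 0.24, adjusted p = 0.025), and the third, a dim probe set, at E60 (-2.84, SE 0.72, adjusted p = 0.034). RAB11B, of recycling endosomes, read 834 to 1256 at E60, below all arrays of E50 and E70, with a change of -0.86 at E60 against E50 (SE 0.26, adjusted p = 0.059). RAB11A, RAB7A and RAB35, of endosomes, had changes of 0.05, -0.36 and -0.20 at E60 against E50 on their brightest probe sets. A second RAB11A probe set, above background on all arrays, was called higher at E60 (1.36, SE 0.28, adjusted p = 0.017) and at E70 (1.23, SE 0.28, adjusted p = 0.022) against E50.

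Between E60 and E70, as M1 went on to the late bell stage, 0 of the 88 members passed limma's test, against a background of 0.421% of all probe sets and 0.724% of genes (0.118% higher, 0.606% lower). At an unadjusted p under 0.05 there were 14 members, and 7.73% of all probe sets. Fitted on the E60 and E70 arrays alone, without the more variable E50 arrays, again 0 members passed, with a background of 1.75%. In that fit the lowest adjusted p belonged to SSR3 (-0.77, SE 0.157, adjusted p = 0.0922), SEC23A (-0.74, SE 0.155, adjusted p = 0.0966) and SEC62 (-0.85, SE 0.185, adjusted p = 0.102). With arrays weighted by their quality, these 3 genes were called lower at E70, with adjusted p of 0.046, 0.035 and 0.044 and a background of 3.89%, and with a trend and robust prior ARF4 and SEC23A were (adjusted p = 0.042 and 0.041), as were 1.83% of all genes. Across members the change from E60 to E70 ran from -0.85 for SEC62 to 1.12 for TRAPPC1, with a median of -0.07 against 0.05 over all genes. Negative values were seen in 15 of the 19 genes of entry into the ER and in 14 of the 30 RAB genes. Among coats, cargo receptors, ARF and TRAPP they were seen in 20 of 37. This difference in sign between the roles was not tested. Arrays did not overlap in 12 members with higher and 22 with lower signal at E70, beside 18.4% and 15.7% of all genes.

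A number of members were brightest at the middle stage. All 3 E60 arrays were above all 6 others in 12 members, 13.6% of 88, where 4.89% of all genes had this order, and all were below in 2 (COPZ1 and RAB11B), or 2.27% against 5.51%. On the probe sets that stood for the genes, the 12 were SEC62 and SSR3 at the channel, SEC23A and SEC24D of COPII, TMED5 and TMED10, COPB1 of COPI, ARF2, and RAB1A, RAB2A, RAB14 and RAB3GAP2. This order was noticed in the data and is given with no test, and the members' smaller spread between arrays at E60, a median SD of 0.113 against 0.185 for all genes, moved with it. All 3 E50 arrays were above the rest in 23 members (26.1%, against 20.8% of all genes) and below in 10 (11.4%, against 13.3%). For E70 the arrays were highest in 3, TMED4, RAB34 and SEC14L1 (3.41%, against 5.85%), and lowest in 10 (11.4%, against 7.18%).

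**Figure D5:**
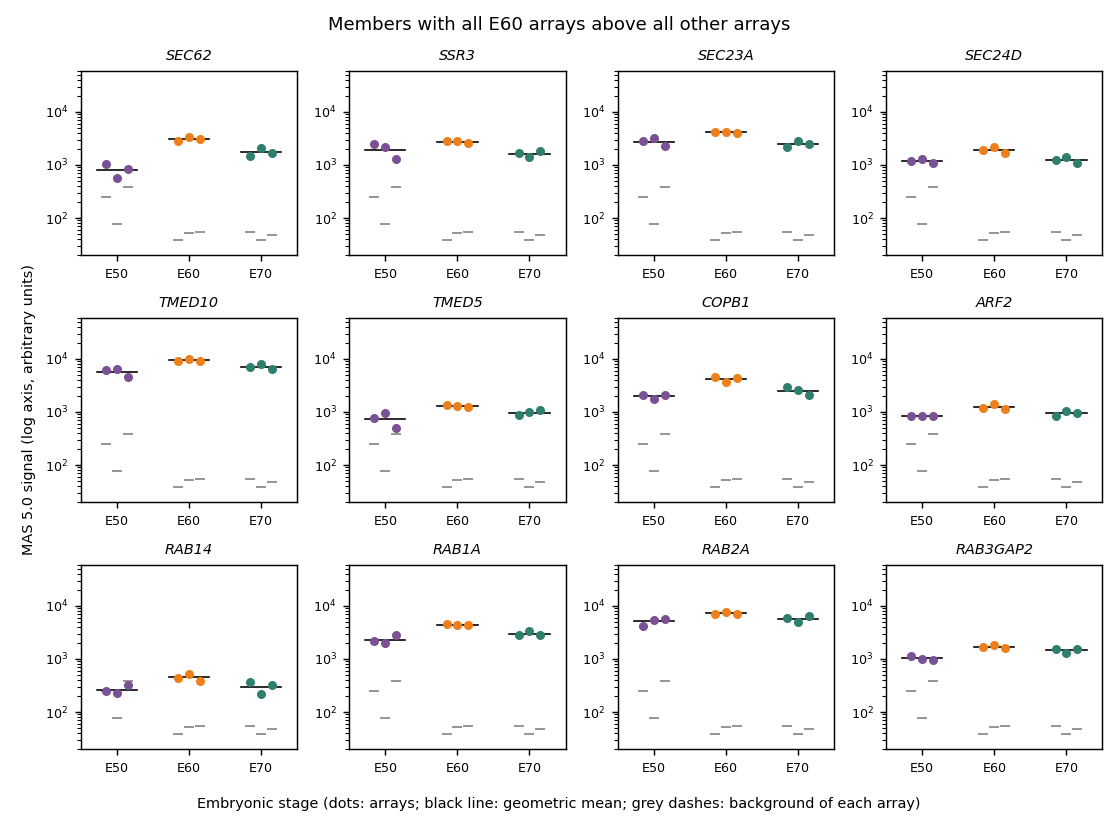
Signal (log axis, arbitrary units) on each array (dots) of the 12 members whose 3 E60 arrays were above all 6 others, with the geometric mean of each stage (black line) and the background of each array (grey dashes), for E50, E60 and E70 from left to right. The genes were picked for this order, and the separation is narrow in most panels, with SEC62 at 2890.1 to 3379 at E60 the widest.

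Over the whole interval, E70 against E50, 3 members rose (SEC62, RAB10 and RAB18), 18 fell and 67 did not pass, a called share of 23.9% beside a background of 18.8% of all probe sets and 21.6% of genes. Rises made up 8.16% and falls 10.6% of all probe sets, or 7.33% and 14.3% of genes, and 31 members had an unadjusted p under 0.05, against 34.2% of all probe sets. This comparison shares its E50 arrays with E60 against E50, and so the 2 sets of values are not independent. The median change was 0.05 over the members and -0.11 over all genes, and arrays did not overlap in 13 members with higher and 25 with lower signal at E70, beside 18.0% and 25.5% of all genes. By role, 9 of the 19 genes of entry into the ER were called (1 higher, 8 lower), 4 of the 37 genes of coats, cargo receptors, ARF and TRAPP (all lower) and 8 of the 30 RAB genes (2 higher, 6 lower). Fitted on the E50 and E70 arrays alone, 0 members rose and 7 fell, where 2.41% of all genes rose and 5.99% fell. Over the 3 stages together, limma's moderated F called 18 members, beside 17.7% of all probe sets.

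Other genes of the route, counted from lists of known partners, were called in both directions too. Their values are those of the brightest probe set of each gene, although MAGT1 had 5 probe sets and TRAM1 had 4. Other settings and leave-one-out fits are not given for these genes. Of 162 listed genes 103 were measured, and at E60 against E50 18 of them rose and 14 fell (31.1%, against 20.9% of all genes), at E70 against E60 1 fell (against 0.724%), and at E70 against E50 11 rose and 15 fell (25.2%, against 21.6%). Oligosaccharyltransferase, which adds sugar chains as proteins enter the ER, had 3 of its 10 measured genes higher and 1 lower at E60 against E50. Its catalytic subunit STT3A rose by 1.23 (SE 0.22, adjusted p = 0.011) and MAGT1 by 2.14 (SE 0.24, adjusted p = 0.0027), whereas DAD1, a small subunit, fell by 1.36 (SE 0.24, adjusted p = 0.010). OST4, another small subunit, was the 1 listed gene called between E60 and E70, with geometric means of 248 at E70 and 879 at E60 (-1.82, SE 0.25, adjusted p = 0.039). At the channel, TRAM1, which guides chains into the membrane, rose by 0.73 (SE 0.19, adjusted p = 0.037) and HSPA5, the main ER chaperone, by 1.11 (SE 0.29, adjusted p = 0.037) at E60 against E50.

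Further along the route, SNAREs, which fuse vesicles with their target membrane, and their partners had 4 of 24 measured genes higher and 5 lower at E60 against E50. SNAP23 and SCFD1 rose by 1.63 (SE 0.19, adjusted p = 0.0030) and 1.72 (SE 0.25, adjusted p = 0.0060), and VAMP8 and STX8 fell by 1.31 (SE 0.22, adjusted p = 0.0088) and 1.11 (SE 0.24, adjusted p = 0.021). Clathrin and its adaptors had 3 of 13 higher and 3 lower, with CLTC, the clathrin heavy chain, up by 1.30 (SE 0.24, adjusted p = 0.012) and AP1S1 down by 2.40 (SE 0.28, adjusted p = 0.0030). ERGIC2, of the compartment between ER and Golgi, rose by 2.28 (SE 0.22, adjusted p = 0.0017), and ERGIC1 fell by 1.07 (SE 0.19, adjusted p = 0.011). CREB3L2, a transcription factor that raises COPII genes in mouse chondrocytes, was above background on no array at E50 and on all arrays at E60 and E70, with geometric means of 417 at E60 and 537 at E70. Calls at E60 against E50 were also made among COPI partners (1 lower of 7), Golgi tethers (1 lower of 9), the RAB cycle (1 higher and 1 lower of 6) and retromer (2 higher and 1 lower of 7), and none among 3 exocyst genes.

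Markers of the cells in the dissection also moved with stage. Skeletal muscle genes, 11 measured, summed to 7088 to 9888 at E50, 2204 to 2399 at E60, then 809 to 923 at E70, with 7 of 11 lower at E60 and 8 lower at E70 against E50, and at E70 TNNT3 and TNNI1 were above background on no array. Macrophage genes, 4 measured, summed to 3143 to 4632 at E50, 1169.8 to 1364.5 at E60, then 572 to 761 at E70, with 1 of 4 higher and 2 lower both at E60 and at E70 against E50. Odontoblast and bone genes, 8 measured, summed to 184152 to 218759 at E50, 118946 to 120895 at E60, then 43786 to 51673 at E70, with 1 of 8 higher and 2 lower at E60 and 4 lower at E70 against E50, and at E70 DSPP, DMP1 and SP7 were above background on no array. Mesenchymal genes, 6 measured, summed to 143636 to 156981, 115785 to 121462 and 69272 to 107875 from E50 to E70, with 2 of 6 higher and 1 lower at E60 and 2 lower at E70 against E50. The sums of 5 epithelial genes were 4337 to 7321, 5139.5 to 6106 and 12489 to 13605, with 0 called at E60 and 3 of 5 higher at E70 against E50. The enamel genes of ameloblasts, 5 measured, were above background on all 3 arrays for 0 genes at E50, 0 at E60 and 2 at E70. Of the other lists, blood had 1 of 5 genes higher at E60 against E50, endothelium 1 of 5 lower, and gland, plasma cell and cartilage genes none, and at E70 the summed signal of these lists ran from 200.1 for gland and mucosa to 4221 for blood. The part of these cell types in the changes of the secretory genes was not tested.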

How the data were processed

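The authors hybridised biotin-labelled RNA to Porcine Genome Arrays and deposited MAS 5.0 signal intensity per probe set, computed in GeneSpring and scaled so that each array's mean, with 2% trimmed at each end, was 500.1. Of 24123 probe sets, 124 array controls were set aside. Gene names came from the platform annotation: 10069 tested probe sets had 1 symbol, 198 several and 13732 none. RAB6A, listed several times for 1 probe set, was not used.

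Signals were floored at 1 (900 values), log2-transformed and fitted over 9 arrays with limma 3.58.1 in R 4.3.3 (lmFit and eBayes), with p-values adjusted by Benjamini-Hochberg over 23999 probe sets. Tables and plots used Python 3.11.15, NumPy 2.4.6, pandas 2.3.3 and Matplotlib 3.10.9. The number of arrays limits the precision. Named were all members called in a comparison and the member of highest mean signal in each role, and others with values were chosen after these were seen. The members and lists were chosen with earlier results of these data known. Alternatives covered scaling, floor, dim probe sets, prior, array weights, 2-stage fits, a replicate block, probe set choice and leaving out each array. No sequence was used here.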

Additional observations from a re-analysis of the deposited data

How the results depend on the processing

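Counts of called members depended on the processing, as did those of all genes, whose share called the same way in the same setting stands in parentheses. No called member changed sign in any setting, which says little because only large changes were called. The adjusted p rose to 0.813 for SSR2 at E60 and to 0.838 for ARF4 at E70, both against E50. At E60 against E50, 7 higher members (7.2%) became 26 with median centring (21.3%), 4 with quantile normalization (6.36%) and 13 with a filter on dim probe sets (11.5%). The filter kept probe sets above background on all 3 arrays of at least 1 stage, so a probe set dim at E50 could pass through a later stage. The 7 became 15 with a trend and robust prior (11.6%), 2 with array weights (3.74%) and 2 with the 2 stages alone (3.24%). They became 4 with the mean of a gene's probe sets (7.12%), and 1 to 9 when 1 array was left out (2.76% to 9.71%). The 12 lower members (13.7%) became 4 with median centring (3.92%), 6 with array weights (4.69%) and 7 with the 2 stages alone (6.65%), and 6 to 16 with 1 array left out (5.35% to 16.9%), with the lowest count without any 1 of the E60 arrays. At E70 against E60, 0 lower members (0.606%) became 2 with a trend and robust prior (1.83%) and 3 with array weights (2.94%). At E70 against E50, 3 higher members (7.33%) became 23 with median centring (21.9%), 0 with quantile normalization (7.05%), array weights (3.74%) or the 2 stages alone (2.41%), 6 with the filter (12.3%) and 8 with the trend (12.5%), and 0 to 6 with 1 array left out (3.34% to 10.2%). The 18 lower members (14.3%) became 5 with median centring (5.65%), 5 with array weights (5.75%) and 7 with the 2 stages alone (5.99%), and 7 to 20 with 1 array left out (7.83% to 17.6%). Over 3 stages, 18 members (20.6%) became 30 with median centring (24.9%), 28 with the filter (31.4%), 37 with the trend (31.1%) and 11 with array weights (12.2%), and 10 to 22 with 1 array left out (up to 26.1%). The cause was not tested. Of the 19 calls at E60 against E50, 11 were kept with median centring and 10 with quantile normalization, and of the 21 at E70 against E50, 8 and 12.

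Replicate numbers did not pair the arrays: same-numbered arrays of different stages had deviations that correlated at -0.0211 to 0.0261. With the replicate number as a block, 2 members were higher (4.17%) and 7 lower (8.13%) at E60 against E50, 0 higher (4.3%) and 9 lower (9.28%) at E70 against E50, and 8 were called over 3 stages (9.99%). Dim members at E50, where 68 of 88 were above background on all 3 arrays, limit what the comparisons with E50 can show.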
